A study of Mus musculus with 28 samples.

Results

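Binding sites of Smchd1 were mapped in mouse neural stem cells by chromatin immunoprecipitation and sequencing (ChIP-seq), with the same ChIP in cells that lack Smchd1 as the control. The members are the summits, 1 bp each, at which the Smchd1 ChIP of wild-type cells stood above the Smchd1 ChIP of null cells. A strict list was called at a threshold of 5e-4 and a looser one at 5e-3. All 407 summits of the strict list on assembled chromosomes were taken, together with the 669 of the 1105 looser summits that had no strict summit within 1 kb. These 669 are called loose-only, and the 1076 members stand among 373485 summits in the 11 lists of the series.

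All cells were male, of the mixed strain C57BL/6 x FVB/N, derived from the brain at embryonic day 14.5 and grown with EGF and bFGF. The null cells were homozygous for the MommeD1 allele of Smchd1 (Smchd1MommeD1/MommeD1). Both genotypes were immunoprecipitated with the Abcam antibody ab31865, with 2 libraries each, and the series holds 28 libraries in all. The other lists used here are Ctcf in untransduced wild-type, non-silencing wild-type and null cells, H3K4me3 and H3K27me3 in wild-type and null cells, and methylated DNA captured on an MBD protein.

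Each list was called on the pooled libraries of its group. The lists hold no value per library, so no difference was tested over replicates. A range given after a share is its exact 95% Clopper-Pearson interval, which covers counting error only. Other shares are given without a range. Summits near one another are not independent, so intervals that do not overlap are no test. The null ChIP served as the control, so it has no list of its own, and a place with equal signal in both genotypes would not appear in either list. Whether the 2 libraries of a genotype came from separate cultures is not stated in the labels, and the depth of the libraries is unknown. At the Smchd1 gene itself there was no strict and no loose-only summit, and H3K4me3 summits lay near its ends in wild type (2) and in null cells (1), which does not check the null allele.

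The cell type was checked on H3K4me3 summits near gene ends. In wild-type cells 8 of 8 neural stem cell markers (among them Sox2, Nes and Olig2) carried one, and in null cells 7 of 8, the exception being Pax6. The mark was present at 3 of 5 neuronal, 1 of 4 glial, 1 of 3 mesenchymal and 0 of 4 endothelial and blood markers in either genotype.

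Smchd1 is a noncanonical protein of the SMC family, the family that includes the ring-shaped cohesin and condensin subunits. It is known for its part in silencing the inactive X chromosome, clustered protocadherin genes and some imprinted clusters. Ctcf is a zinc finger protein that binds DNA at chromatin loop anchors and boundaries. H3K4me3 marks active or poised gene starts, and H3K27me3 is placed on silent developmental genes by the Polycomb complex PRC2.

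The promoters of 4 named genes are shown because they represent the settings in which strict summits were found: beside Ctcf and H3K4me3 (Mtus2), beside H3K4me3 without Ctcf (Isl1), beside H3K27me3 (Hoxd9) and beside none of these (Slc17a6). Each run holds 250 bases before and 50 bases after and including the start site, 5′ to 3′ on the gene's strand, from RefSeq (GRCm38.p6, the assembly that mm10 names). Capitals mark matches to AGGNGGC on either strand, a stretch of the Ctcf consensus, where N is any base. Other forms of the consensus were not searched for. The capitals are therefore not shown to be the Ctcf site, and lower-case bases can hold another form.
Mtus2: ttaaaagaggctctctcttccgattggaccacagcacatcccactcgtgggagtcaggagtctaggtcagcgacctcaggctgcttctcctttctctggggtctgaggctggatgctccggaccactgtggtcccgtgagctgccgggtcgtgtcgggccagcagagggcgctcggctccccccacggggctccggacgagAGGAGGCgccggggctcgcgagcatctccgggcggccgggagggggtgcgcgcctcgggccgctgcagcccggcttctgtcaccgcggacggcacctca
Isl1: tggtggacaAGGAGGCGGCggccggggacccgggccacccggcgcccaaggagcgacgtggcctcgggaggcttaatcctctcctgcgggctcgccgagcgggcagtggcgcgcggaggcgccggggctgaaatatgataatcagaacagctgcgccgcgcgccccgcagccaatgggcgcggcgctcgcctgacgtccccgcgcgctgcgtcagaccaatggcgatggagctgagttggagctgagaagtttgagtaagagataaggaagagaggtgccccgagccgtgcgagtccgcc
Hoxd9: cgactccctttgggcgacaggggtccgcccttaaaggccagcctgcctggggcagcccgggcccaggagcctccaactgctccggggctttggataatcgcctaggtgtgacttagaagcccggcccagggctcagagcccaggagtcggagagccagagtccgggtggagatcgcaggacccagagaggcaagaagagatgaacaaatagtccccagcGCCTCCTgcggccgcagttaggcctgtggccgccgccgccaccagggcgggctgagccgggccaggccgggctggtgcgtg
Slc17a6: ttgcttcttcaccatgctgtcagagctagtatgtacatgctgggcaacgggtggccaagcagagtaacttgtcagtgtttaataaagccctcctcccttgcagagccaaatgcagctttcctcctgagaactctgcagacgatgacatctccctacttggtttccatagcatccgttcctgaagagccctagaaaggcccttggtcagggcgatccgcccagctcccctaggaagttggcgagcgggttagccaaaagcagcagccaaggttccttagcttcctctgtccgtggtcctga

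Mtus2, a gene for a microtubule-associated protein, lies on the plus strand with its window at chr5:147957070-147957369. Its strict summit scored 16.9 and lay 83 bases before the start site, 3 bp from a wild-type Ctcf summit and 295 bp from wild-type H3K4me3. The centre of the capitals was 37 bp from the summit. This is a distance to those letters only, as the bases nearer the summit were not searched for other forms. Isl1, a LIM homeodomain factor of motor neurons, is on the minus strand at chr13:116309639-116309938. Its summit scored 7.23 and lay 189 bases before the start site and 67 bp from wild-type H3K4me3, for which no null counterpart was called within 1 kb. At Hoxd9 (chr2:74697513-74697812, plus strand) the summit scored 3.65 and lay 4 bases before the start site, 24 bp from the centre of the capitals, with wild-type H3K27me3 at 143 bp and the nearest wild-type Ctcf at 4648 bp. At Slc17a6, which encodes a vesicular glutamate transporter (chr7:51621580-51621879, plus strand), the summit scored 8.32 and lay 46 bases after the start site. Its nearest wild-type Ctcf was 3740 bp away and its nearest wild-type H3K4me3 127127 bp away.

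Of 21263 promoter windows of coding genes, 33.6% held AGGNGGC on either strand. The 46 windows with a strict summit inside or within 250 bases held it in 26 cases (56.5%, 41.1 to 71.1), and the 153 windows with a loose-only summit in 62 cases (40.5%, 32.7 to 48.75). Windows with wild-type H3K4me3 within 1 kb held it in 42.9%. The windows with strict summits were also richer in G and C, at a median of 67.2% against 56.3% for all windows and 62.3% for those with H3K4me3, and in CpG dinucleotides, at a median of 26 against 13 and 22. Among the printed runs, Isl1 has 37 CpG and Slc17a6 has 8. A match is a description of the letters, and the share moves with base composition, whose part was not tested.

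The score of a summit is the authors' own −log10 value and is used only to rank summits. Strict scores ran from 3.36 to 29.0 with a median of 6.63, and 71 of them were 10 or more. Loose-only scores ran from 2.32 to 11.1 with a median of 3.69, and 1 of them was 10 or more. The plot of scores by rank shows a steady fall in the strict set, while the first loose-only summit stood apart at 11.1 before 8.32. The values are few: 197 distinct scores in the strict set and 172 in the loose-only set, so many ranks are tied.

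**Figure D1:**
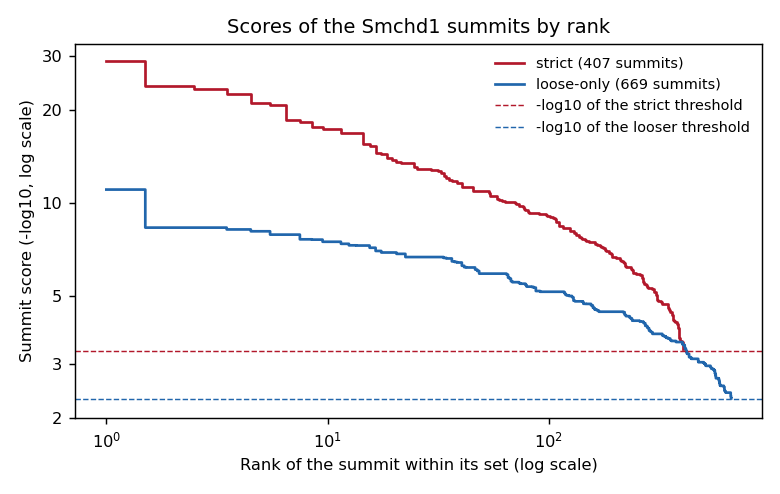
Scores (−log10, log axis) of the 407 strict and 669 loose-only Smchd1 summits by rank within their set (log axis), with dashed lines at the −log10 of both thresholds. The loose-only curve crosses the strict threshold line, with 418 summits above it.

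The 2 lists did not differ by score alone. Of the loose-only summits, 418 (62.5%) scored above 3.301, the −log10 of the strict threshold, and 33 scored above the strict median. In the reverse direction, 378 of the 407 strict summits recurred at the same position with the same score in the looser list, and the other 29 lay a median of 263 bp and at most 832 bp from a looser summit. The strict summits just inside the threshold lay in Snrpn (3.36), Loxhd1 (3.36), 4580 bp from Cyp3a41a (3.44), in Fam167a and in Tfap2a (3.53 each). The highest outside were near Tmem154 (11.1), in Gm21188 and near Rhou (8.32 each), near Cenpu (8.21) and in Coro2b (8.09).

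Of the 15 highest strict summits, 10 had wild-type Ctcf and 6 wild-type H3K4me3 within 1 kb. Wild-type Ctcf here is a summit of either wild-type list, and the 15 were not counted with the untransduced list alone. The first (chrX:169987103, score 29.0) lay in Mid1, which encodes a microtubule-binding ubiquitin ligase, 101 bp from wild-type Ctcf. The second (chr15:72568728, 24.0) lay 20114 bp from Kcnk9, a potassium channel gene. The third (chr2:39806893, 23.5) lay 580544 bp from its nearest coding gene, Ppp6c, with no Ctcf or H3K4me3 within 200 kb in either genotype but with an MBD summit of the list named for wild type at 177 bp. In Glra1, a glycine receptor gene, the summit scored 20.8 and lay 250 bp from a gene end, with wild-type Ctcf 16680 bp away. Snai2, a neural crest transcription factor gene, had a summit of 17.7 at 4314 bp, 11 bp from wild-type Ctcf and 4 bp from null Ctcf.

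The highest loose-only summit (chr3:84746084, 11.1) lay 41509 bp from Tmem154 and 53077 bp from the nearest wild-type Ctcf. The summit beside Cenpu (8.21), a centromere protein gene, lay 105 bp outside the gene and 281 bp from wild-type H3K4me3. The one 36221 bp from Hoxb9 (7.90) lay 7 bp from wild-type Ctcf and 18 bp from null Ctcf. The one 249510 bp from Ythdf3 (7.28) lay 6 bp from wild-type Ctcf. Of the 15 highest loose-only summits, 4 had wild-type Ctcf and 2 wild-type H3K4me3 within 1 kb.

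Summits lay near gene ends in both sets. Within 2 kb of a coding gene end were 145 strict (35.6%, 31.0 to 40.5) and 258 loose-only summits (38.6%, 34.9 to 42.4), against 5.53% of the positions of the annotated chromosome spans. Inside coding genes were 43.7% of strict and 47.4% of loose-only summits, against 38.2% of positions. More than 50 kb from any coding gene were 75 strict (18.4%) and 133 loose-only summits (19.9%), and 33 (8.11%) and 55 (8.22%) were more than 200 kb away. Inside a lncRNA gene but outside coding genes were 43 strict (10.6%) and 58 loose-only summits (8.67%). The share of positions far from coding genes or in lncRNA genes was not counted. These last counts therefore show neither an excess nor a lack of summits there.

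Loose-only summits lay more often at start sites. Within 1 kb of a RefSeq start site were 170 of 649 loose-only summits (26.2%, 22.85 to 29.8) and 71 of 398 strict summits (17.8%, 14.2 to 22.0), against 1.43% of positions. Chromosome 18 is left out of these counts. Within 250 bp the shares were 18.0% (15.1 to 21.2) and 10.05% (7.28 to 13.4), and the intervals do not overlap. Within 2 kb, 45 strict summits lay upstream and 42 at or downstream of the start, with a median position of −22 bp. Of the loose-only summits, 87 lay upstream and 116 at or downstream, with a median of 55 bp.

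Some genes were shared by the sets. Taking the nearest coding gene within 20 kb, strict summits named 215 genes and loose-only summits 432, of which 61 were common (28.4% of the strict genes and 14.1% of the loose-only genes). By rule no loose-only summit lies within 1 kb of a strict one, which takes 436 looser summits out of this count. Of all 21887 coding genes, 3.0% had a loose-only summit in the gene or within 20 kb and 1.34% a strict one. Those shares take every gene in reach and not the nearest alone, so they are a rough reference. Counted over both sets, 44 genes had 3 or more summits. Nr2f2, a nuclear receptor gene, had 5 strict and 1 loose-only, with a top score of 12.9. Hoxa3 had 4 and 2 (10.5), Snrpn 5 and 0 (18.4), and Rbfox3, which encodes the neuronal protein NeuN, 4 and 1 (9.09).

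As the sets are defined, strict summits were clustered more than loose-only ones. The rule takes 436 looser summits within 1 kb of a strict one out of the loose-only set. These cannot count as loose-only neighbours, so the sets do not stand on an equal footing. The part of the rule in the difference was not tested. Another summit of the same set lay within 10 kb of 119 strict summits (29.2%, 24.9 to 33.9) and of 88 loose-only summits (13.15%, 10.7 to 15.95). Within 1 kb the counts were 77 (18.9%) and 49 (7.32%). The median distance to the nearest of the same set was 164.3 kb for strict and 597.5 kb for loose-only summits, although the strict set is the smaller. A strict summit lay within 10 kb of 70 loose-only summits (10.5%), and the median distance from a loose-only to a strict summit was 1413 kb.

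**Figure D2:**
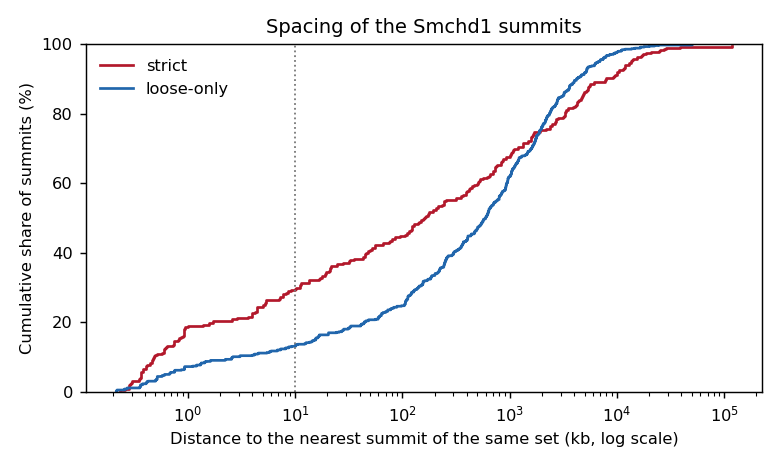
Cumulative share of summits (%) by the distance to the nearest summit of the same set (kb, log axis), with a dotted line at 10 kb. At 10 kb the strict curve stands at 29.2% and the loose-only curve at 13.15%; the single strict summits of chromosomes 19 and Y have no neighbour and are not reached by the strict curve.

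Joined within 10 kb, the 1076 summits formed 896 groups, of which 790 were single summits, 77 pairs, 15 groups of 3 and 14 clusters of 4 or more. The 14 clusters held 87 summits (8.09%), and 45 of the 106 groups of 2 or more held both kinds. Homeotic gene clusters gave 4 of the 14: HoxD, HoxA, HoxB and HoxC, whose genes set identity along the body axis. Clusters at transcription factor genes included those of Nkx6-1, Nr2f2, Tfap2a, Zfp503 and Onecut2. Other clusters lay at Tchh (trichohyalin), Pcsk2 (a prohormone convertase), Pcdh17 (a protocadherin outside the clustered families) and Efna5 (an ephrin).

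The HoxD cluster was the largest, with 17 summits (11 strict) over 58.0 kb from Evx2 to Hoxd3 and a top score of 16.9 in Hoxd3. Of these summits 6 had wild-type Ctcf, 5 null Ctcf and 6 wild-type H3K27me3 within 1 kb (2 had Ctcf of the untransduced wild-type list alone), and none had H3K4me3 in either genotype. The HoxA cluster had 15 summits (6 strict) over 38.3 kb and a top score of 17.3 at 1282 bp from Hoxa9. Wild-type H3K27me3 lay at 10 of its 15 summits, the largest count of any cluster though not the largest share. Ctcf of either wild-type list lay at 5 of its summits, Ctcf of the untransduced wild-type list at 2 and null Ctcf at 1. H3K4me3 lay at 2 in wild type and 4 in null cells. The HoxA strict summits scored 4.70, 7.54, 5.47, 5.43, 10.5 and 17.3 in order along the chromosome, and its 9 loose-only summits scored between 2.55 and 4.23, of which 4 lay within or near Hoxa7.

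**Figure D3:**
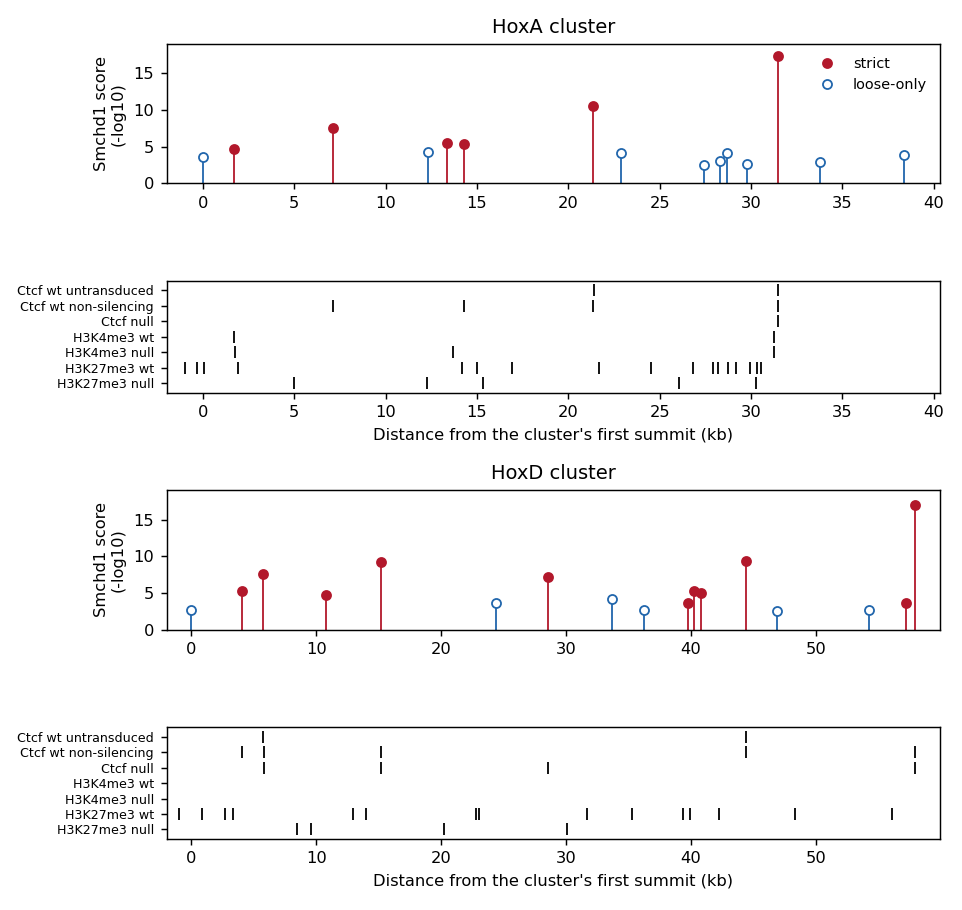
Smchd1 summits of the HoxA and HoxD clusters as stems (height is the score, −log10; filled strict, open loose-only) by distance from the cluster's first summit (kb), with ticks below for summits of Ctcf, H3K4me3 and H3K27me3 in wild-type (wt) and null cells. The highest stem of each cluster (17.3 in HoxA, 16.9 in HoxD) stands over Ctcf ticks of wild type and null, and the H3K27me3 row of wild type is dense where the null row has few ticks.

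Outside the Hox clusters the groups differed in their make-up. Pcsk2 had 4 strict summits, the highest 13.8, of which 3 had H3K4me3 in both genotypes and none had Ctcf. Tchh had 5 strict summits within 3.09 kb, the highest 7.13, all with H3K4me3 in both genotypes and 3 with wild-type H3K27me3. Zfp503, a zinc finger gene, had 5 loose-only summits within 2.30 kb and no strict one, with a top score of 3.76, and all 5 had wild-type H3K4me3. Tfap2a, a neural crest factor, had 3 strict and 2 loose-only summits, of which 3 had H3K4me3 in wild type and 5 in null cells.

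The gene lists below were drawn up with earlier results known, so their counts are descriptions. Over all 21887 coding genes, 1.34% had a strict summit in the gene or within 20 kb, 3.0% a loose-only summit and 3.82% either. Neighbouring genes can be counted through the same summit. All 11 HoxA genes were counted through strict summits. Of 10 HoxB genes, 7 had a strict summit, and Hoxb1 and Hoxb2 were added by loose-only summits. Of 9 HoxC genes, 5 had a strict summit, and Hoxc4 and Hoxc5 were added, so that the cluster rested on 2 strict and 8 loose-only summits. Of 9 HoxD genes, 8 had a strict summit.

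Among 62 other homeobox genes, 11 had a strict summit and 15 either kind. Six2, a kidney and craniofacial regulator, had 2 strict summits (highest 11.3), Nkx6-1, a ventral spinal cord factor, had 3 (10.9), and Cdx2, a caudal identity factor, had 1 (7.90). Lhx5, En1, Meis2 and Irx5 were reached only by loose-only summits, whose highest scores were 3.76, 3.76, 5.03 and 3.56. Of 9 Pax genes, Pax3 and Pax9 had a strict summit and Pax2 and Pax7 were added. Of 12 genes listed with Gata3, Gata4 and Wt1, those 3 and Osr1 had a strict summit and Gata6 and Zic1 were added. Of 15 T-box genes, Tbx3 had 2 strict summits (12.1) and Tbx18 was added (3.69). Of 12 neural crest genes, Snai2, Tfap2a and Tfap2b had strict summits.

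The listed developmental genes carried Polycomb marks with or without Smchd1. In these 5 lists together, 17 of the 30 genes with a Smchd1 summit of either kind (56.7%) had wild-type H3K27me3 within 2 kb of a gene end, as did 36 of the 80 without one (45.0%), against 0.85% of all coding genes. Wild-type H3K4me3 was at 9 of the 30 and 42 of the 80 (52.5%), against 58.3% of all coding genes. In null cells H3K27me3 was at 5 of the 30 and 6 of the 80, in a list of 77 summits against 732 in wild type.

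Neuronal genes were the other group with several members. Over all coding genes 1.34% had a strict summit and 3.82% either kind. A summit anywhere in a gene was counted, and some of these genes are long, such as Nrxn3 (chr12:88722701-90334935). The counts were not adjusted for gene length, whose part was not tested. Of 18 neuronal identity genes, Rbfox3, Slc17a6 and Nefm had strict summits. Of 36 channel and synapse genes, 6 had a strict summit, among them Glra1 (20.8), the calcium channel subunit gene Cacng2 (17.3), the neurexin gene Nrxn3 (14.49), Kcnk9 (11.6) and the scaffold gene Dlgap1 (10.0). Gabrb1, Kcna1, Kcnj6 and Cdh13 were added by loose-only summits of 3.12, 3.01, 3.12 and 3.12. Of these 10 genes 7 had wild-type H3K4me3 at a gene end (70.0%) and none had H3K27me3, and of the 26 without a Smchd1 summit 18 had H3K4me3 (69.2%).

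Outside the Snrpn region, the imprinted and protocadherin loci rested on few summits. In the Snrpn cluster 3 of 8 genes were counted (Snrpn, Magel2 and Mkrn3) through 7 strict summits and 1 loose-only summit, the latter of 3.97. These counts leave out summits farther from the listed genes. The window from 60 to 61 Mb of chromosome 7, with Snrpn as nearest coding gene, had 10 summits, all strict (highest 18.4). Of these, 9 had wild-type Ctcf or H3K4me3 within 1 kb. The window from 62 to 63 Mb, with Magel2, Mkrn3, Peg12 and A26c2, had 7 summits (5 strict, highest 22.6). Both windows were singled out after their counts were seen. Among 27 other imprinted genes, Grb10 (6.61) and Kcnk9 were counted and loose-only summits added none. The Pcdha genes overlap, so 13 of 14 were counted through 1 strict summit of 5.85 and 2 loose-only ones, the higher of 4.70, and none of the 22 Pcdhb or 22 Pcdhg genes was. Of 17 genes for Smchd1 partners and other SMC proteins, only Lrif1, whose product binds Smchd1 and HP1, had summits: 3 strict (highest 11.0, 144 bases before its start site) and 1 loose-only (3.38).

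Several lists had no member with a summit of either kind: neural stem cell identity (20 genes), glia (14), germ cells (21), Polycomb subunits (16), DNA methylation (14), X inactivation (8), mesenchyme (8), endothelium and blood (12), the Igf2r cluster (3) and housekeeping genes (16). A count of 0 of 20 neural stem cell genes allows a share of up to 15.0%, so lists of this length cannot show a share below the 3.82% of all genes.

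Chromosomes differed in density. Over all chromosomes there were 4.92 summits of both kinds per 100 coding genes. Chromosome 13 had 10.4 and chromosome 12 had 8.98, and chromosome 5 had 7.64. Chromosome 19 had 2.41, with 1 strict and 16 loose-only summits. The order changed per Mb of annotated span, where all chromosomes together had 0.398 summits. Chromosome 13 stayed highest at 0.733, followed by chromosomes 7 (0.647), 11 (0.64) and 5 (0.639), and chromosome 12 had 0.508. By this measure chromosome 19 had 0.292, above chromosomes 16 (0.194), 10 (0.212) and 9 (0.255). The X chromosome had 9 summits (0.932 per 100 coding genes) and the Y chromosome 5 (1.95). These cells are male, with 1 X and 1 Y chromosome. Whether any of these summits lay in sequence that X and Y share was not examined, so they are not all shown to be single-copy.

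Part of the summits of chromosomes 5, 12 and 13 lay in arrays of similar genes, in windows of 1 Mb singled out after their counts were seen. The window from 66 to 67 Mb of chromosome 13, which holds the zinc finger gene Zfp640, 2410141K09Rik and predicted genes such as Gm10323, had 14 summits (11 strict, highest 10.3), of which 1 had wild-type Ctcf or H3K4me3 within 1 kb. The neighbouring window from 65 to 66 Mb had 8 summits (3 strict). The window from 18 to 19 Mb of chromosome 12, with Zfp996, had 6 summits and none with either mark. The window from 15 to 16 Mb of chromosome 5, with Speer4d, had 6 summits, of which 5 had wild-type Ctcf. Reads from such near-identical copies can be placed on any of them, so positions within these arrays are uncertain.

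Whether Ctcf or H3K4me3 was the more frequent neighbour of strict summits depended on the Ctcf list. A Ctcf summit of either wild-type list lay within 1 kb of 179 strict (44.0%, 39.1 to 48.95) and 229 loose-only summits (34.2%, 30.6 to 38.0), against 1.57% of genome positions and 8.81% of coding start sites. The untransduced wild-type list alone, which is shorter than the non-silencing one, gave 90 (22.1%) and 107 (15.99%). The Ctcf summits of null cells lay by 141 (34.6%) and 163 (24.4%), against 0.867% of positions. Where Ctcf was present it was close, at a median of 16 bp from strict and 21 bp from loose-only summits, and 146 and 177 of them lay within 50 bp.

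H3K4me3 was as frequent in both sets. It lay within 1 kb of 146 strict (35.9%, 31.2 to 40.7) and 245 loose-only summits (36.6%, 33.0 to 40.4) in wild type, against 1.4% of positions and 56.7% of coding start sites. With the null list the counts were 155 (38.1%) and 253 (37.8%), against 1.42%. The median distance was 176.5 bp from strict and 153 bp from loose-only summits. The H3K4me3 summits beside strict Smchd1 summits ranked low within their own list, with a median percentile of 34.6, and those beside loose-only summits had a median of 46.3.

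H3K27me3 lay within 1 kb of 21 strict (5.16%, 3.22 to 7.78) and 24 loose-only summits (3.59%, 2.31 to 5.29) in wild type, against 0.0427% of positions and 0.409% of coding start sites. Its median distance was 728 bp from strict and 442.5 bp from loose-only summits, and it lay within 50 bp of 0 and 4 of them. Most of the strict cases were the HoxA, HoxD, Tchh, Nkx6-1 and Onecut2 clusters. Loose-only summits added Gdf6 (3.53), Irx1 (3.76), Bhlhe22 (2.44), Gsc (2.42) and Mkx (4.82), all genes of developmental signals or transcription factors. Taking the highest summit of each group of strict summits alone, the share was 2.39%.

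Methylated DNA lay beside the summits at about the share of the genome or below it. An MBD summit of the list named for wild type lay within 1 kb of 34 strict (8.35%) and 65 loose-only summits (9.72%), against 10.1% of positions. With the list named for null the shares were 5.65% and 7.47%, against 8.31%. The labels of the MBD samples contradict the names of the lists, so no genotype is assigned to either.

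**Figure D4:**
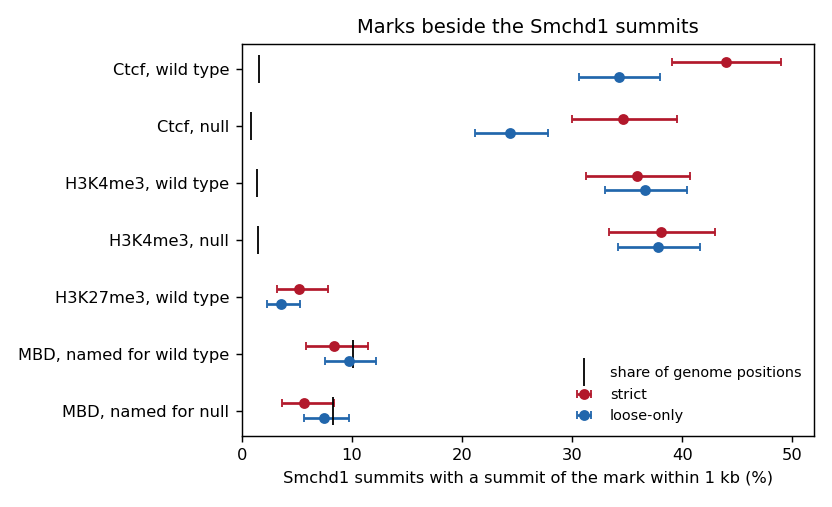
Share of strict and loose-only Smchd1 summits (%, points with exact 95% intervals) with a summit of each mark within 1 kb, and the share of genome positions within 1 kb of that mark (vertical tick). Ctcf of either wild-type list is at 44.0% of strict and 34.2% of loose-only summits. Wild-type H3K4me3 is at 35.9% and 36.6%, and both MBD lists lie near or below their ticks.

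The marks divided both sets into 4 classes. Of the strict summits, 57 had Ctcf and H3K4me3, 122 Ctcf alone, 89 H3K4me3 alone and 139 neither (34.15%). Of the loose-only summits the numbers were 51, 178, 194 and 246 (36.8%). Summits with Ctcf alone had the highest median score in each set, 7.76 and 4.29. Of these, 27.05% and 38.8% lay more than 50 kb from a coding gene, as did 25.9% and 22.4% of those with neither mark. Summits with H3K4me3 alone had medians of 5.90 and 3.36, and 38.2% and 60.3% of them lay within 1 kb of a start site.

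Between the ends of the score range, Ctcf was more frequent and H3K4me3 less frequent at high scores in both sets. Each set was divided by score into 4 bins of equal size. Wild-type Ctcf here is a summit of either wild-type list, and the bins were not counted with the untransduced list alone. From the lowest to the highest bin of strict scores, the share with wild-type Ctcf went from 36.3% (26.98 to 46.4) to 58.8% (48.6 to 68.5), by way of 32.35% and 48.5%, and that with H3K4me3 from 46.1% (36.2 to 56.2) to 23.5% (15.7 to 33.0). Among loose-only summits Ctcf went from 23.2% (17.1 to 30.3) to 46.7% (39.0 to 54.6) and H3K4me3 from 49.4% (41.6 to 57.2) to 21.0% (15.1 to 27.9). The intervals of the lowest and highest bins do not overlap in these 4 series.

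**Figure D5:**
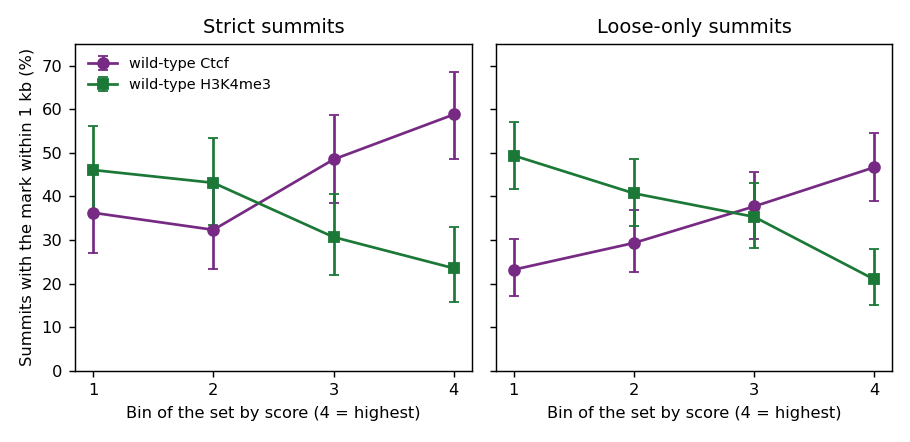
Share of Smchd1 summits (%) with Ctcf of either wild-type list (circles) or wild-type H3K4me3 (squares) within 1 kb, by bin of the score within each set, with exact 95% intervals. In both panels the lines cross: H3K4me3 leads in the lowest bin (46.1% and 49.4%) and Ctcf in the highest (58.8% and 46.7%).

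The neighbouring marks were then compared between wild-type and null cells. Lists of different lengths share fewer summits for that reason alone, so each share is read against that of the whole list. Unless counted as Ctcf summits, the shares count Smchd1 summits, and those of the whole lists count summits of the mark. The units differ, and Smchd1 summits near one another can count the same mark summit more than once. H3K4me3 changed little: of the strict summits with wild-type H3K4me3, 95.9% also had it in the null list within 1 kb, as did 93.9% of the loose-only ones, against 92.6% of all wild-type H3K4me3 summits. H3K4me3 lay only in the null list at 15 strict and 23 loose-only summits and only in the wild-type list at 6 and 15.

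Among the strict summits with H3K4me3 in null cells alone were those of Hoxa5 (Smchd1 score 5.47, H3K4me3 score 11.7), Tbx3 (10.2 and 6.98) and Pcdh17 (4.07 and 18.2). Loose-only examples were Kcna1 (3.01 and 9.27), Tfap2a (5.15 and 4.86), Gata6 (2.42 and 5.95) and Pcdha7 (4.70 and 15.6). The nearest wild-type H3K4me3 lay 11679 bp away at Hoxa5, 46081 bp at Pcdha7 and 326115 bp at Gata6, but 1049 bp at Pcdh17, just beyond the 1 kb used, 1501 bp at Kcna1 and 2611 bp at Tfap2a. Strict summits with H3K4me3 in wild type alone included those of Isl1 (7.23 and 5.95), the one 138415 bp from Parp8 (16.9 and 5.52) and 1 in the Nr2f2 neighbourhood (9.02 and 3.53), and loose-only ones Zfp503 (3.76 and 8.00) and Tbx18 (3.69 and 5.27). At Zfp503 the nearest null H3K4me3 lay 1185 bp away and at Isl1 715262 bp.

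Wild-type Ctcf beside Smchd1 had a null counterpart more often than wild-type Ctcf over the whole lists. Of the strict summits with Ctcf in either wild-type list, 122 also had null Ctcf and 57 had not (68.2% shared), and of the loose-only summits 135 and 94 (59.0%), against 49.6% of all wild-type Ctcf summits. In the reverse direction, 86.5% and 82.8% of the Smchd1 summits with null Ctcf had wild-type Ctcf, against 78.8% of all null Ctcf summits. The count of Smchd1 summits with Ctcf in 1 genotype alone turned with the wild-type list used. With both wild-type lists it was 57 in wild type and 19 in null for strict summits, and 94 and 28 for loose-only ones. With the untransduced wild-type list alone it was 15 and 66, and 28 and 84. With that list 53.2% and 48.5% of the Smchd1 summits with null Ctcf had wild-type Ctcf, against 43.3% of all null Ctcf summits. No direction between genotypes is drawn from these counts. Counted as Ctcf summits, 83.5% (74.3 to 90.5) of the 91 untransduced wild-type Ctcf summits by a strict Smchd1 summit had a null counterpart, and 73.3% (63.8 to 81.5) of the 105 by a loose-only one, against 61.7% of all 8292. For the non-silencing list the shares were 68.2% (60.7 to 75.1) of 173 and 58.9% (52.1 to 65.5) of 219, against 44.7% of all 20483.

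Within bins of Ctcf score the picture was less even. In the lowest of 4 bins of non-silencing Ctcf scores, 53.85% (37.2 to 69.9) of the Ctcf summits by strict Smchd1 had a null counterpart, 35.9% (21.2 to 52.8) of those by loose-only Smchd1 and 27.7% of all. In the highest bin the shares were 84.6% (71.9 to 93.1), 85.5% (74.2 to 93.1) and 67.6%. In the highest bin of the untransduced list they were 82.1% (63.1 to 93.9), 88.5% (69.85 to 97.55) and 77.1%, and in its second bin the loose-only share was 56.25% (37.7 to 73.6) against 57.5% of all. Null Ctcf with no partner in either wild-type list lay at 19 strict summits, among them Rbfox3, Hoxb5, Hoxb6, Hoxd11 and Grb10, and at 28 loose-only summits. At Rbfox3 the nearest wild-type Ctcf lay 1086 bp away, just beyond the 1 kb used. It lay 24294 bp away at Hoxb5, 15742 bp at Hoxb6, 13361 bp at Hoxd11 and 52271 bp at Grb10.

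H3K27me3 was rarely shared. Of the 21 strict summits with wild-type H3K27me3, 1 also had it in the null list, and of the 24 loose-only summits 1 (4.76% and 4.17%), against 7.24% of all wild-type H3K27me3 summits. Here too the units differ, as the whole-list share counts H3K27me3 summits. The null list held 77 summits and the wild-type list 732.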

How the data were processed

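Crosslinked chromatin from wild-type and Smchd1-null neural stem cells was sonicated, immunoprecipitated and sequenced, per the labels' protocols. Per the submitters' processing notes, CASAVA 1.4 and MACS2 (version 2) were used, on mm10. Which aligner was used is not given in these sources. The deposited values are the authors' −log10 scores, 1 per summit. Whether these are p-values or q-values is not stated. Per the labels, all lists were called on pooled libraries. The control was the null ChIP for Smchd1, the Ctcf ChIP of shRNA-depleted cells for Ctcf, and whole cell extract for the other marks. Depth per library is unknown.

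Distances, shares and groups were computed in Python 3.11.15 (numpy 2.4.6, pandas 2.3.3, scipy 1.17.1, matplotlib 3.10.9) and tested on simulated positions. A mark counted as present within 1 kb. Wild-type Ctcf means a summit of either wild-type list unless a list is named. Summits within 10 kb were joined into groups. Genes came from RefSeq tables (GRCm38.p6) that give gene ends and promoter windows for 17492 of 21887 coding genes and none on chromosome 18. Results for some genes are not reported here. Exons, introns and the sequence at summits outside these windows were not analysed here. Summits off the assembled chromosomes were left out. 0 columns of per-sample values were left unused.

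Named genes are those nearest to the 15 highest summits of each set, listed genes with a summit in the gene or within 20 kb, genes of clusters of 4 or more summits, and Smchd1. Genes with 3 or more summits, genes whose neighbouring mark was called in 1 genotype, and windows of 1 Mb were singled out after their values were seen. Members and all 27 gene lists were chosen with earlier results of these data known. Alternatives changed distances, score minimums, the Ctcf list, the loose-only rule and the use of grouped summits.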

Additional observations from a re-analysis of the deposited data

Results flagged for a closer look

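The looser Smchd1 list held 8 summits on contigs outside the assembled chromosomes, which no comparison above uses. Their scores ran from 2.44 to 17.7 with a median of 4.95. The strict list held 3 of them, with scores from 4.43 to 17.7. The table of genes used here was read for the assembled chromosomes only, so no gene is named for these summits.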

How the results depend on the processing

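No paired analysis was possible because every list was called on pooled libraries and carries no replicate. For the same reason no library could be left out. Of 38 alternatives over 10 results, 19 stayed within the counting interval (shares) or within 1.5 times (counts), and 19 moved. Those that moved mostly changed the distance. Within 5 kb, Ctcf lay by 53.3% of strict and 43.95% of loose-only summits, H3K4me3 by 42.45% of loose-only summits, and H3K27me3 by 12.0% and 7.92%. Within 250 bp, H3K4me3 lay by 24.3% and 24.96%, and H3K27me3 by 0.983% and 1.34%. Taking 1 kb or 5 kb from a gene end gave 25.8% and 47.9% of strict and 29.75% and 47.4% of loose-only summits. Another strict summit lay within 5 kb of 24.6% and within 50 kb of 40.5%. With the untransduced Ctcf list alone the strict share was 22.1%. With Ctcf scores of 10 or more it was 23.8%, and the loose-only share 20.5%. With the highest summit of each group alone, strict H3K27me3 was 2.39%, and the cause was not tested. Defining loose-only by 500 bp or 5 kb gave 690 or 620 summits and moved none of the Ctcf, H3K4me3 and gene-end shares. It was not run for H3K27me3. Strict Ctcf stayed above loose-only Ctcf at each distance and at the Ctcf score minimum. Small counts, above all of H3K27me3, limit the precision.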
